A study of Sus scrofa with 12 samples.

Results

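Cell cycle and DNA replication genes encode the proteins that license and copy DNA, drive the passage through the phases of the cycle and divide the chromosomes. A list of 37 such genes, chosen by symbol, was followed in IPEC-J2 cells, an epithelial line from pig small intestine whose genotype the labels give as WT. Of the 37, 31 had at least 1 of the 25055 merged m6A peaks, among 11422 genes with a peak, and held 83 peaks in all. Of these peaks, 73 lay under 1 gene and belonged to 29 members, while 10 were shared with a neighbouring gene. BIRC5, an inhibitor of cell death that also acts at mitotic chromosomes, had only peaks shared with TK1, and PCNA, the sliding clamp of DNA polymerase, had only peaks shared with CDS2 or TMEM230. Expression values were found for 35 members among 20889 genes. CDC6, GMNN, BUB1 and CENPE had an expression value and no peak row, and MCM5 and CCNA2 were found under neither table and were not analysed here.

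For 24 h the cells had been given OAA at 25 µM (OAA group) or 0 µM (CON group); the title of the series concerns 2-oxindole-3-acetic acid. All groups were the same line in DMEM/F12 medium with serum, and the passage or separate growth of the replicates is not stated. Each treatment had 3 numbered replicates, and each replicate a library labelled input and a library labelled IP, which gave 12 libraries in 4 groups: OAA labelled input, CON labelled input, OAA labelled IP and CON labelled IP. The assay was MeRIP-seq, in which short RNA fragments bound by an antibody against N6-methyladenosine (m6A) are sequenced beside unselected fragments. Nothing says that the replicates were separate cultures, so a p-value reflects the spread of these samples alone, and that spread may be technical.

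N6-methyladenosine is written into mRNA by a methyltransferase complex that contains METTL3 and METTL14, lies mostly in long internal exons and around stop codons, and is read by proteins such as YTHDF2, which speeds the decay of the mRNAs it binds. Cell cycle genes are expressed in waves. Cyclin D with CDK4 and cyclin E with CDK2 lead into S phase, E2F factors switch on the genes for licensing factors, nucleotide supply and the replication fork, and FOXM1 with its partners switches on the genes of mitosis. Their mRNA levels in a culture depend on how many cells are cycling and on the phases these cells are in, and bulk libraries cannot tell more cells in a phase from more RNA per cell.

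The labels and the counts disagree about which libraries held the antibody-bound RNA. More reads fell in peaks in the libraries labelled input than in those labelled IP, in 97.3% of 24931 peaks with a count in OAA and 98.3% in CON. The log2 ratios in the authors' deposited table followed labelled input over labelled IP, with medians of 4.04 in OAA and 3.97 in CON. Ratios here keep that direction, so a positive value means more reads in the library labelled input, and their sign as an antibody enrichment turns if the labels hold. The sign of a change of ratio turns with it. Differences between OAA and CON within one type of library keep their values under either reading, but which of them describes RNA level and which antibody signal cannot be told apart from the labels. Reads in peaks totalled 19.0 to 21.5 M in OAA labelled input, 16.5 to 23.0 M in CON labelled input, 4.36 to 4.61 M in OAA labelled IP and 3.71 to 4.46 M in CON labelled IP. In labelled input, member peaks under 1 gene took 0.622 to 0.641% of these reads in OAA and 0.613 to 0.655% in CON. In labelled IP they took 0.835 to 0.864% in OAA and 0.827 to 0.883% in CON. Peaks shared with another gene are left out of these shares. MKI67, the gene of the proliferation antigen Ki-67, alone took 0.411 to 0.443% in OAA and 0.424 to 0.443% in CON for labelled input. The epithelial markers KRT8, EPCAM and CDH1 averaged 396, 196 and 129 FPKM, while VIL1, a brush border gene, was at 0.245 and CLDN7 at 2.09. All 4 fibroblast and all 4 leukocyte markers were below 1 FPKM, and the 3 endothelial markers CDH5, PECAM1 and KDR were at 3.78, 1.44 and 1.15. In most members OAA library 3 lay outside the range of OAA libraries 1 and 2, and results that rest on it are given with and without it.

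Gene expression was given as FPKM (fragments normalised for transcript length and library size) for 6 libraries, which by their codes are those labelled IP. On this per-length scale the members spanned 3.41 FPKM for CENPE, a kinetochore motor, to 176 FPKM for RRM2, the small subunit of ribonucleotide reductase, as means over the 6 libraries. RRM2 had 178, 183 and 173 FPKM in OAA, against 172, 179 and 171 in CON. CCNB1, the cyclin that with CDK1 starts mitosis, had 148, 150.2 and 155 FPKM in OAA and 156, 153 and 149 in CON. For CDK1 itself the values were 127, 129.5 and 143 FPKM in OAA and 151, 149.7 and 139 in CON. The RRM2 and CCNB1 groups overlapped, and so did those of CDK1, where OAA library 3 lay above the lowest CON library.

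The other members followed by role, with means over the 6 libraries. In nucleotide supply, RRM1, the large reductase subunit, averaged 88.9 FPKM and TYMS, thymidylate synthase, 39.7. Among the licensing genes, the helicase subunits MCM4, MCM7, MCM6, MCM2 and MCM3 averaged 138, 56.9, 54.0, 42.9 and 21.0 FPKM. Their loading factors were lower, with CDT1 at 8.23 and CDC6 at 4.55, and GMNN, geminin, which holds CDT1 back, was at 9.59. PCNA was at 46.7. The transcription factors E2F1 and FOXM1 were at 35.4 and 12.8. In the G1 and S set the kinases CDK4 and CDK2 (107 and 72.3) stood above the cyclin genes CCND1, CCNE2 and CCNE1 (22.4, 11.8 and 5.71). Of the mitotic genes, MKI67, CDC20, an activator of the anaphase-promoting complex, and TPX2, a spindle assembly factor, were at 98.6, 95.1 and 94.6. TOP2A, the topoisomerase that untangles chromosomes, and the spindle motor KIF11 were at 76.5 and 60.0. The kinases AURKA, AURKB and PLK1 were at 57.0, 21.2 and 8.87, the checkpoint genes BUB1B and BUB1 at 30.2 and 18.3, and BIRC5, CCNB2 and CENPF, a kinetochore protein, at 29.9, 28.5 and 26.7.

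The first comparison asked whether OAA changed these levels. None of the 35 members passed the test between OAA and CON on FPKM, and none of 10763 genes did (0%; limma on log2(FPKM + 1) with Benjamini-Hochberg adjustment). At an unadjusted p under 0.05 there were 2 members, CCNE2 and CDK1, against 3.31% of all genes. CCNE2, cyclin E2, had 10.3, 10.7 and 11.7 FPKM in OAA and 13.1, 13.3 and 11.7 in CON. All OAA libraries were below all CON libraries, although the highest OAA and the lowest CON value were nearly the same. Its difference was -0.20 ± 0.08 (SE; log2(FPKM + 1) scale, unadjusted p = 0.0238, limma adjusted p = 1), and it was -0.14 ± 0.06 for CDK1 (unadjusted p = 0.0413, limma adjusted p = 1). CENPE, next by p, had 2.66, 3.28 and 3.04 FPKM in OAA and 3.90, 4.65 and 2.95 in CON, with groups that overlapped and a difference of -0.26 ± 0.13. Besides CCNE2, PCNA was below CON in every OAA library, with 45.4, 45.4 and 46.3 FPKM in OAA and 48.1, 47.3 and 47.6 in CON. In the other direction RRM1 (88.6, 90.3 and 91.1 in OAA, 88.0, 88.4 and 87.1 in CON) and CDC6 (4.73, 4.74 and 4.91 in OAA, 4.13, 4.28 and 4.51 in CON) did not overlap. That is 2 of 35 members with OAA below, where 5.27% of all tested genes did so, and 2 with OAA above, against 3.28%. The median difference was -0.01 over the members and -0.01 over all genes, and the median 95% interval of a member was ± 0.13.

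**Figure D1:**
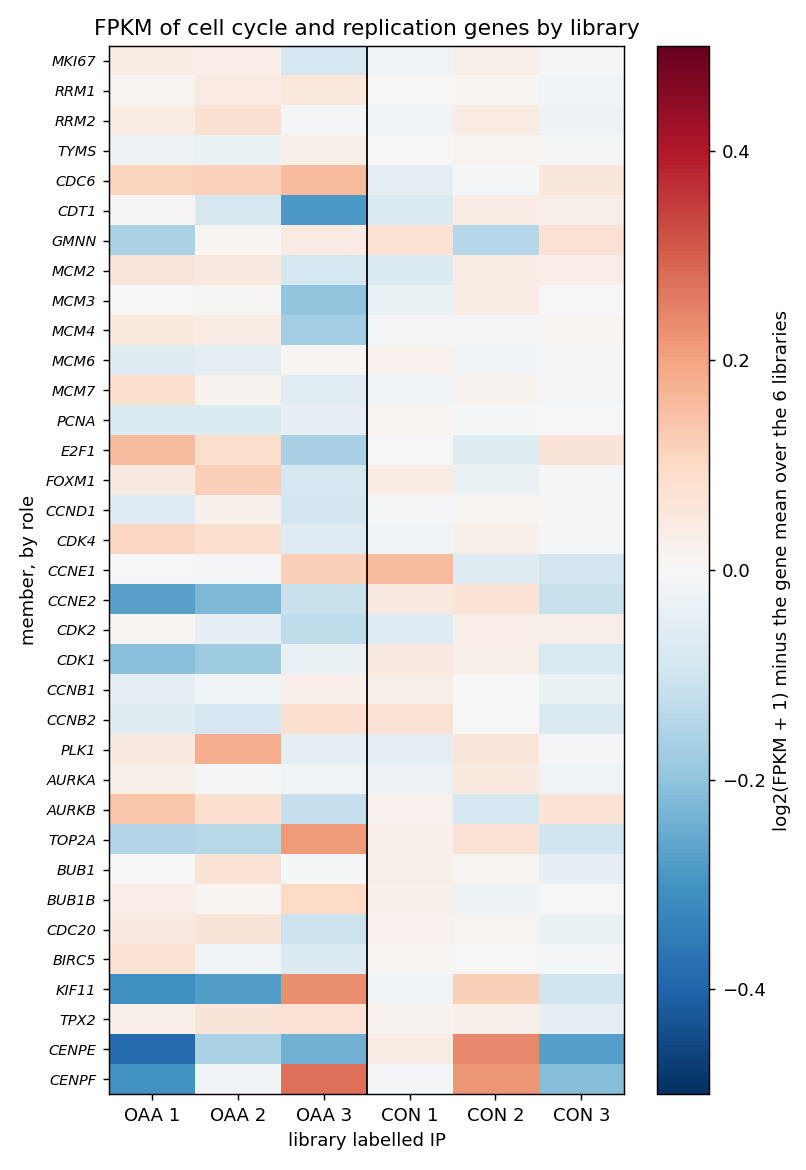
Each row is a member, ordered by role, and each column a library labelled IP, 3 of OAA and 3 of CON. Colour shows log2(FPKM + 1) minus the gene's mean over the 3 CON libraries, so OAA colours are differences from the CON mean. The label of the colour bar names the mean over all libraries, but the plotted values are taken from the CON mean. The third OAA column differs from the other OAA columns in most rows, with CENPF, KIF11 and TOP2A above them and E2F1, MCM4 and CDT1 below.

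The third OAA library stood apart from the first and second. In 34 of 35 members its FPKM lay outside the other OAA values, 16 above and 18 below, and over all tested genes it lay above in 36.1% and below in 46.7%. KIF11 had 49.9, 50.9 and 73.0 FPKM in OAA and 61.1, 67.4 and 57.7 in CON. TOP2A had 69.3, 69.7 and 89.2 in OAA and 78.3, 80.8 and 71.7 in CON, and CENPF 21.3, 26.2 and 32.4 in OAA and 26.4, 31.1 and 22.8 in CON. For these 3 genes, chosen after their values were seen, the third OAA library was the highest of all 6 libraries, while the first was the lowest. The third OAA library lay below the other OAA values for both transcription factors, E2F1 and FOXM1. Among the spindle motors and kinetochore genes it lay above them for KIF11, TPX2 and CENPF and between them for CENPE. Members of some other roles were split. In mitotic entry it lay above for CDK1, CCNB1 and CCNB2 and below for PLK1, AURKA and AURKB. In origin licensing it lay above for CDC6, GMNN and MCM6 and below for CDT1, MCM2, MCM3, MCM4 and MCM7. MCM4 had the opposite order, with 144, 143 and 124 FPKM in OAA and 139, 139 and 140.4 in CON, as had E2F1, with 39.0, 37.2 and 31.1 in OAA and 34.9, 33.5 and 36.6 in CON. The labelled-input library of the same number was also the highest for TOP2A, KIF11 and CENPF: TOP2A had 18.3, 18.6 and 27.3 CPM in OAA and 27.0, 22.2 and 21.8 in CON, KIF11 had 2.53, 2.89 and 4.56 CPM in OAA labelled input and 3.19, 3.16 and 2.21 in CON, and CENPF 734, 842 and 1044 in OAA and 823, 1038 and 753 in CON (CPM are reads in peaks scaled to library size by TMM). With that OAA library left out, 6 of 35 members and 1763 of 10706 genes had an unadjusted p under 0.05 on FPKM, and still 0 genes were called. Of the 35 members, 19 were then above 0 and 16 below. Their median difference was 0.0083, against -0.0039 over all genes. Without that library the difference was -0.29 for KIF11 (limma adjusted p = 0.124), -0.19 for CDK1 (limma adjusted p = 0.124) and -0.14 for TOP2A (limma adjusted p = 0.227), against -0.12, -0.14 and -0.02 with it. Other members went up in OAA libraries 1 and 2. Against the CON mean of log2(FPKM + 1), E2F1 was at 0.15 and 0.09 there and CDK4 at 0.10 and 0.08. On the same scale MCM4 was at 0.05 and 0.04, and CENPF at -0.30 and -0.02.

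In the libraries labelled input, reads in peaks were summed per gene for the 29 members with a peak of their own. None passed the test between OAA and CON, nor did any of 9298 genes (0%; edgeR, adjusted p under 0.05). The members had a median log2 difference of 0.0043, with 15 above 0 and 14 below, and all genes had one of -0.0042. At an unadjusted p under 0.05 there were 2 members, CCNE2 and PLK1, against 4.87% of all genes. CCNE2 had 14.1, 13.9 and 14.7 CPM in OAA and 21.5, 18.4 and 16.9 in CON. As on FPKM, every OAA library was below every CON library, but the 2 libraries of one replicate share their RNA and do not test this independently. Its log2 difference was -0.42 ± 0.15 (SE, 95% interval -0.73 to -0.10, unadjusted p = 0.0123, edgeR adjusted p = 0.929). PLK1, a kinase of mitotic entry, went the other way with 69.2, 78.6 and 80.4 CPM in OAA and 68.0, 61.1 and 62.5 in CON, again without overlap, and a difference of 0.25 ± 0.09 (edgeR adjusted p = 0.929). On FPKM the difference of PLK1 was 0.06 ± 0.08, and its groups overlapped. MCM6 had 7.50, 7.49 and 13.1 CPM in OAA and 15.6, 9.68 and 12.5 in CON. These groups overlapped through the third OAA library, and the difference was -0.44 ± 0.24 (edgeR adjusted p = 0.929); without that library it was -0.76 (edgeR adjusted p = 0.548). The median 95% interval of a member was ± 0.33.

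**Figure D2:**
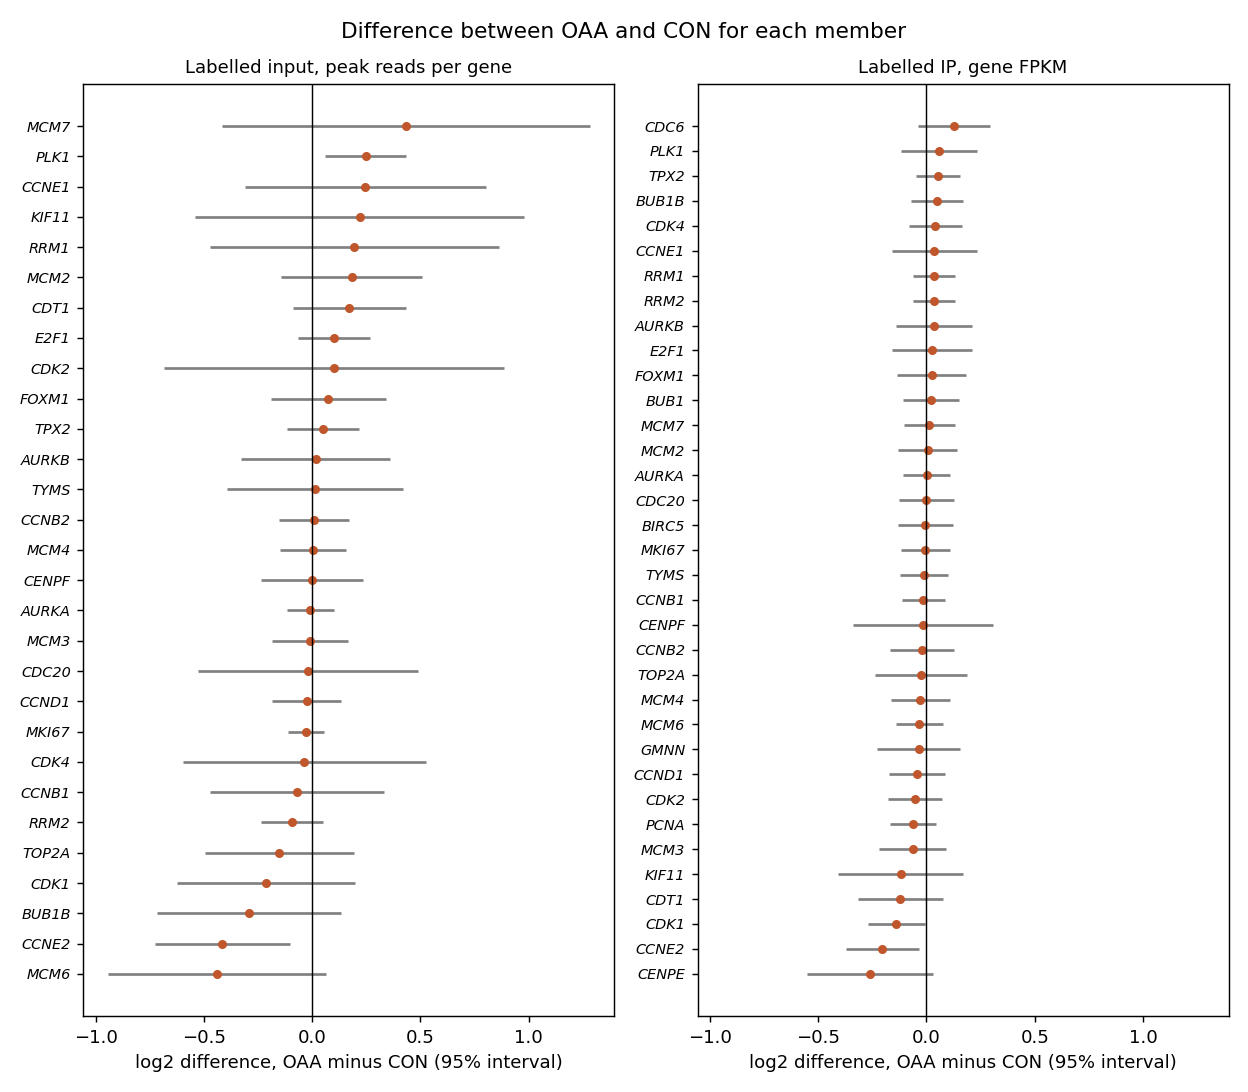
Points give the log2 difference of each member, OAA minus CON, with its 95% interval, on the left for reads in peaks per gene in labelled input (edgeR) and on the right for FPKM in labelled IP (limma, log2(FPKM + 1) scale). Members lie on both sides of 0 in each panel, and CCNE2 is below 0 in both, at -0.42 and -0.20.

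The next comparison set labelled input against labelled IP within each treatment, where 0 is the typical gene because libraries were scaled by TMM. Most members had ratios well below the typical gene. Calls were common, at 76.1% of genes in OAA and 78.1% in CON in either direction. In OAA, 24 of 29 passed the test as lower and 0 as higher, where 38.1% of 8979 genes were called lower and 38% higher. In CON, 26 of 29 were lower and 0 higher, against 38.7% and 39.3% of 8936 genes (edgeR). The median log2 ratio of the members was -1.52 in OAA and -1.39 in CON, and that of all genes -0.0019 and 0.01; all 29 fitted ratios were below 0 in both treatments. The ratios in OAA and in CON come from different libraries of the same line. A lower ratio here means fewer labelled-input reads for the labelled-IP reads in a gene's peaks than in the typical gene.

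The lowest ratios in CON belonged to TOP2A, MCM7 and AURKB. TOP2A, with 1 peak at its stop codon, had ratios of -2.31, -2.22 and -2.08 in the OAA replicates and -1.85, -2.42 and -2.15 in the CON replicates. Its fitted ratio was -2.20 ± 0.16 in OAA (SE, edgeR adjusted p = 1.12e-09) and -2.14 ± 0.12 in CON (edgeR adjusted p = 1.27e-11). MCM7 had -2.33, -2.17 and -1.53 in OAA and -1.27, -2.62 and -2.59 in CON, a wide spread at low counts. AURKB, the kinase of the chromosomal passenger complex, had -1.92, -2.28 and -1.82 in OAA and -1.78, -2.19 and -2.07 in CON. The smallest p-values were those of RRM2, MCM4 and TPX2, which have more reads. RRM2 had -1.80, -1.77 and -1.66 in OAA and -1.64, -1.74 and -1.68 in CON, and MCM4 -1.67, -1.68 and -1.62 in OAA and -1.73, -1.75 and -1.75 in CON. TPX2 had -1.62, -1.57 and -1.38 in OAA and -1.50, -1.56 and -1.63 in CON. For these 3 genes the replicates of both treatments lay close together and far below 0.

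By role, the licensing genes ranged widely. In OAA the fitted ratio was -1.72 for MCM2, -1.70 for MCM6, -0.67 for CDT1 and -0.18 for MCM3, and in CON it was -1.94, -1.46, -0.83 and -0.25 for the same genes. MCM3 did not pass in OAA (edgeR adjusted p = 0.145). TYMS and RRM1 were at -1.89 and -1.02 in OAA and -1.84 and -1.35 in CON. E2F1 was at -0.97 in OAA and -1.04 in CON. FOXM1 was at -0.40 in OAA and -0.33 in CON over its own peaks; with the peaks it shares with RHNO1 and TEX52 included, it was 0.13 in OAA and 0.25 in CON. The cyclins and kinases of G1 and S lay between -1.76 for CCNE2 and -0.59 for CCND1, cyclin D1, in OAA and between -1.58 for CDK4 and -0.53 for CCND1 in CON. CDK2, with 1 short peak of its own, was called in CON and not in OAA (-0.73, edgeR adjusted p = 0.0989). CDK1, CCNB1 and PLK1 were at -2.05, -1.93 and -1.25 in OAA and -1.87, -1.75 and -1.36 in CON, and KIF11, CDC20 and BUB1B at -1.82, -1.34 and -1.71 in OAA and -1.97, -1.39 and -1.35 in CON.

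A few members sat near the typical gene. AURKA, the kinase of spindle poles, had 0.0037, 0.08 and -0.11 in OAA and -0.02, -0.07 and 0.05 in CON, on both sides of 0. MKI67 had -0.11, -0.10 and -0.18 in OAA and -0.10, -0.10 and -0.10 in CON, and CCNB2, cyclin B2, -0.15, -0.19 and -0.14 in OAA and -0.10, -0.14 and -0.30 in CON. The fitted ratio of MKI67 was -0.13 ± 0.05 in OAA and -0.09 ± 0.03 in CON, small but past the threshold (edgeR adjusted p = 0.0263 and 0.0294), and it did not pass with DESeq2. CCNB2 and AURKA passed in neither treatment. CENPF had -0.16, -0.26 and -0.35 in OAA and -0.25, -0.18 and -0.13 in CON, all below 0, and fitted ratios of -0.26 ± 0.13 in OAA and -0.18 ± 0.11 in CON that did not pass (edgeR adjusted p = 0.0782 and 0.126). With the replicate number as a block, which pairs both libraries of one RNA, CENPF was called lower in OAA (edgeR adjusted p = 8.84e-05) and in CON (edgeR adjusted p = 0.00131), and the members called lower numbered 25 in OAA and 27 in CON.

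**Figure D3:**
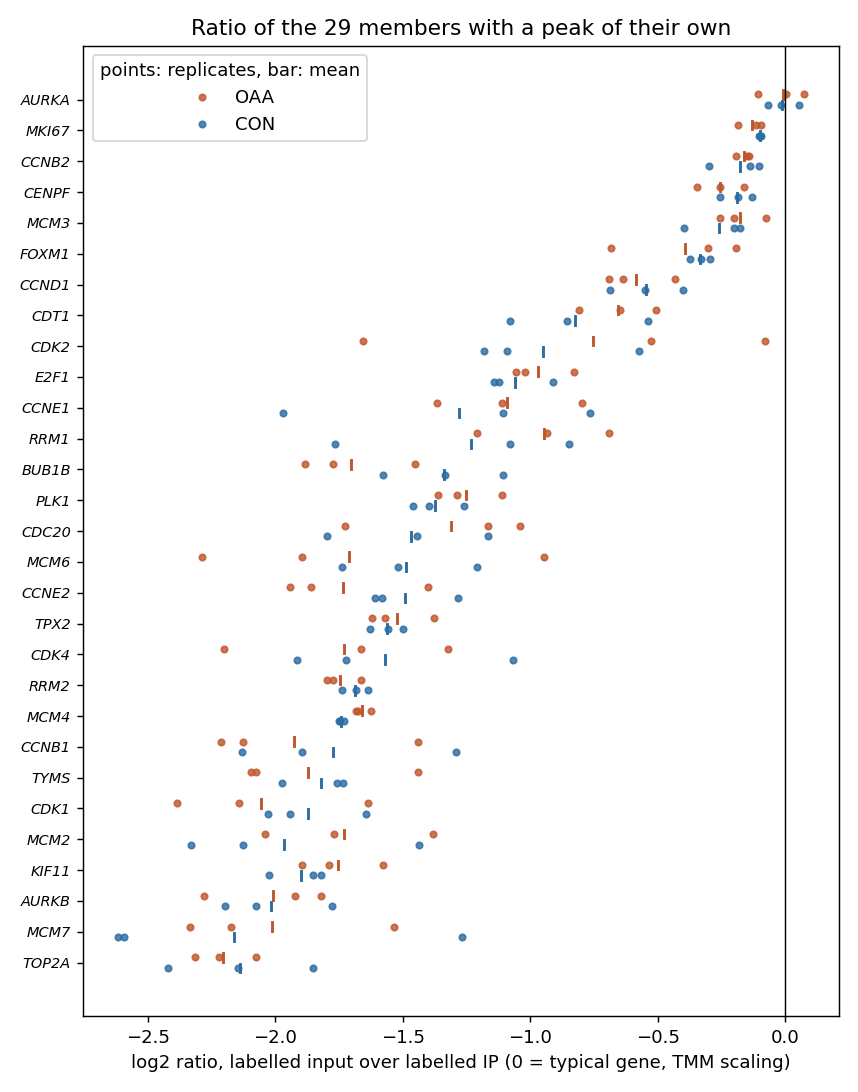
Points give the log2 ratio of labelled input over labelled IP in each of 3 replicates of OAA and of CON for the 29 members with a peak of their own, bars the mean, and 0 the typical gene. All but AURKA lie below 0 in every replicate, from about the level of AURKA and MKI67 at the top down to TOP2A.

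The ratio was lower in genes of higher FPKM, which is RNA level only if the libraries labelled IP held the unselected RNA. Genes were put in 4 equal bins by FPKM. In bin 4, with the highest FPKM, the median ratio was -0.96 in OAA and -0.95 in CON, and in bin 1 0.83 and 0.85. Of the 29 members, 20 were in bin 4, 6 in bin 3, 3 in bin 2 and 0 in bin 1. The 20 had a median ratio of -1.71 in OAA, with 17 called lower, and of -1.56 in CON, with 18 called lower, where 68.8% and 69.2% of all genes in that bin were called lower. In bin 3 the 6 members had medians of -0.49 in OAA and -0.43 in CON, against -0.33 and -0.33 for all its genes; 4 were called lower in OAA and 5 in CON, against 49.4% and 49.2%. In bin 2 the 3 members had medians of -1.12 in OAA and -1.27 in CON, against 0.19 and 0.23, and all 3 were called lower in both treatments, against 29.9% and 31.6%. Over all genes Spearman's rho of FPKM with the ratio was -0.52 in OAA (8685 genes) and -0.52 in CON (8644 genes). FPKM and the lower term of the ratio come from the same libraries, and genes are not independent. The part of the FPKM level in the members' ratios was not tested.

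Members had a median of 2 peaks, with 12 on CENPF and 9 on MKI67. The deposited position labels put 25 of the 73 peaks under 1 gene in coding sequence, 23 at a start codon, 13 at a stop codon, 9 in the 3′UTR and 3 in the 5′UTR. At stop codons, where m6A is known to be dense, the members' median ratio was -0.83 in OAA and -0.86 in CON, against 0.33 and 0.36 over 5238 such peaks of mRNAs. At start codons 19 of 23 member peaks were below 0 in OAA and 19 in CON, with a median of -1.08 in CON; of all 4604 such peaks 2414 were below 0 in OAA and 2432 in CON, with a median of -0.09 in CON. In coding sequence the members were at -0.65 and -0.64, against 0.02 and -0.002 over 5466 peaks, and in the 3′UTR at -0.98 and -1.06, against -0.18 and -0.20 over 3810 peaks. Of the 25 coding peaks 17 belong to MKI67 and CENPF, and the other 8 had medians of -1.46 in OAA and -1.73 in CON. The 3 member peaks in the 5′UTR had a median of 0.93 in OAA and 0.12 in CON, against 0.75 and 0.66 over 1539 peaks. The member medians were thus the lower ones at all 5 positions in CON, and in OAA at all but the 5′UTR. In either direction 68% of all peaks passed in OAA and 69.5% in CON. Of 81 member peaks with enough reads, 11 passed as higher and 49 as lower in OAA, where 33.6% and 34.4% of 23565 peaks did (edgeR). In CON 16 passed as higher and 50 as lower, against 34.9% and 34.6% of 23366 peaks. Scaled by library size alone, 6399 of all peaks were higher and 9779 lower in OAA, and 6403 higher and 10102 lower in CON, as the median of all peaks moved to -0.28 in OAA and -0.33 in CON; member peaks were then 5 higher in both treatments, and 55 lower in OAA and 60 in CON. In the authors' deposited table the log2 ratio of the 83 member peaks had a median of 3.16 in OAA and 3.04 in CON. Over all peaks the deposited medians were 4.04 and 3.97. The lowest deposited ratio of a member peak was 1.30 in OAA and 1.90 in CON, so all were above 0. Values below 0 in the ratios scaled here are therefore relative to the typical peak.

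**Figure D4:**
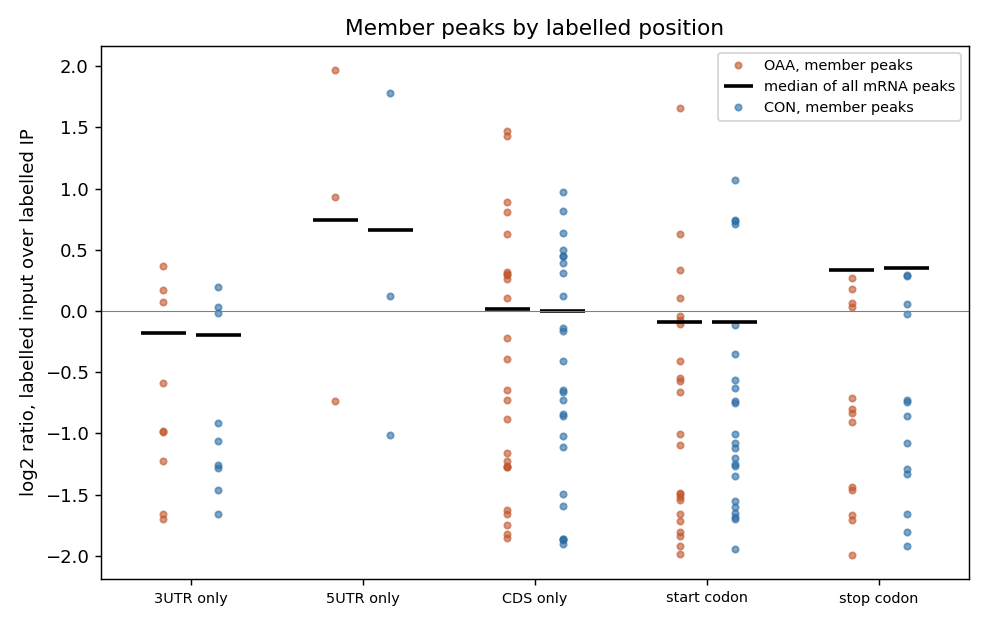
Points give the mean log2 ratio of labelled input over labelled IP of each member peak under 1 gene, by its deposited position label, for OAA and CON; black lines give the median of all mRNA peaks at that position. At start codons, stop codons, coding sequence and 3′UTR most member points lie below the line.

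The gene ratios of MKI67 and CENPF were near 0, and their peaks lay on both sides of 0. MKI67 lies on chromosome 14 on the minus strand in the deposited coordinates, whose build is not given in the sources used here. Its 9 peaks, taken from the 5′ end, had fitted ratios of 0.29, 0.66, 0.92, 0.14, -1.12, -1.01, -0.62, -0.78 and -1.67 in OAA and 0.44, 0.69, 1.02, 0.18, -0.64, -0.69, -0.62, -0.81 and -1.60 in CON. The first 4, all in coding sequence, were above 0, and the last 5, which end with the stop codon and the 3′UTR, below it. The highest was peak 3 (chromosome 14, 137275458 to 137276457), with 0.90, 0.87 and 0.90 in the OAA replicates and 1.00, 1.00 and 0.93 in the CON replicates. The lowest was the last, in the 3′UTR (chromosome 14, 137267184 to 137267258), with -1.70, -1.92 and -1.48 in OAA and -1.55, -1.82 and -1.60 in CON. No replicate of these 2 peaks overlapped. CENPF, on the minus strand of chromosome 9, showed no such gradient: its peak 3 was at 0.83 in OAA and 0.85 in CON, and the neighbouring peak 4, of 75 bases, at -1.54 in OAA and -1.48 in CON.

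**Figure D5:**
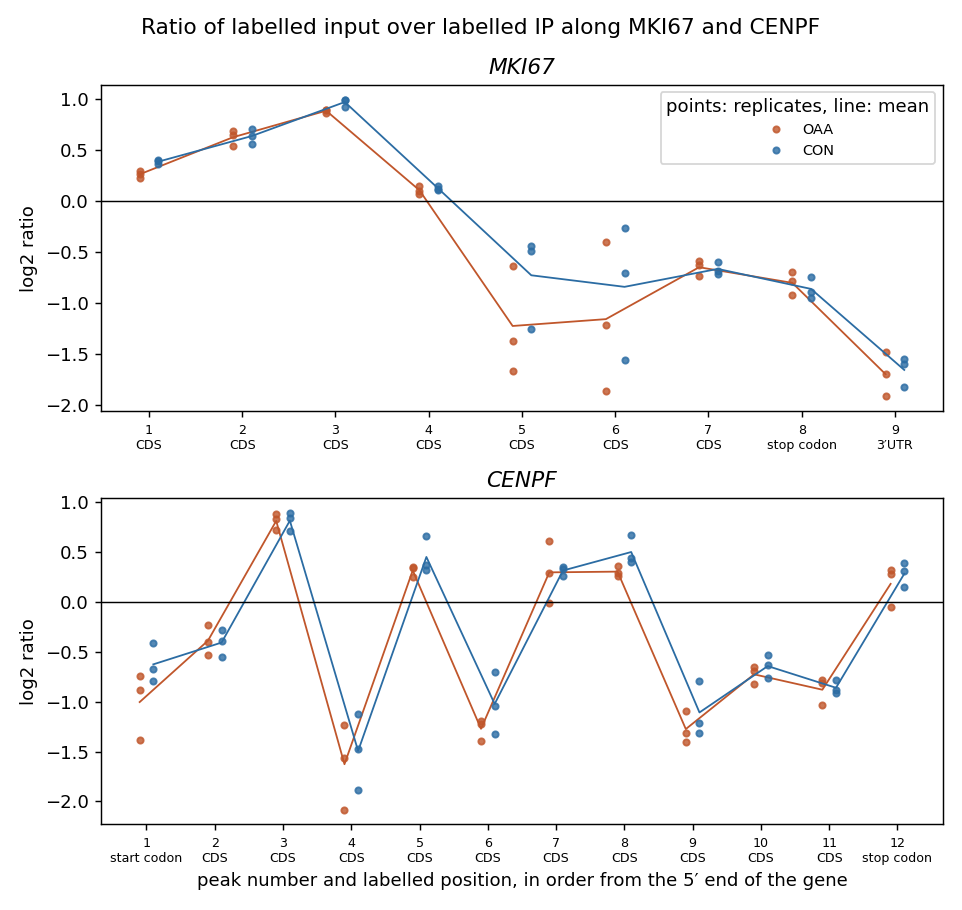
Log2 ratio of labelled input over labelled IP for each peak of MKI67 (top) and CENPF (bottom), in order from the 5′ end, with the replicates of OAA and CON as points and their means as lines. The MKI67 values pass from above 0 to below 0 towards the 3′ end, and those of CENPF change sign several times.

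Start and stop codon peaks of one gene could be far apart. RRM2 had a start codon peak (chromosome 3, 126364795 to 126365161) at 0.40, 0.41 and 1.09 in OAA and 0.84, 0.79 and 0.51 in CON. That peak runs past the deposited 5′ end of the gene, at 126364922. The stop codon peak of RRM2 (chromosome 3, 126358808 to 126359007) was at -1.77, -1.71 and -1.65 in OAA and -1.67, -1.67 and -1.62 in CON. CDT1 was alike, with its start codon peak (chromosome 6, 897864 to 898102) at 1.33, 2.05 and 1.59 in OAA and 1.59, 0.53 and 1.08 in CON and its stop codon peak fitted at -1.45 in OAA and -1.29 in CON. Over the 10 members with both kinds of peak the start codon peak was the higher one in 6 in OAA and in 6 in CON, with a median difference of 0.12 in OAA and 0.10 in CON. Over all 2064 genes with both it was higher in 1060 in OAA and 1032 in CON. MCM4 differed in the same way between its start codon peak (-0.05 in OAA, -0.06 in CON) and a coding peak (-1.80 in OAA, -1.81 in CON). By the deposited log2 ratio the highest tested member peak in CON was the stop codon peak of FOXM1 (chromosome 5, 67261539 to 67262438). It was at 0.93, 0.79 and 0.98 in OAA and 1.10, 1.07 and 0.95 in CON. That peak is shared with TEX52, so its reads cannot be given to a single gene. By the mean of the replicate ratios the CDT1 start codon peak was slightly higher in CON, at 1.07. The lowest in CON by the deposited ratio were the TOP2A stop codon peak (chromosome 12, 22027530 to 22027679) and the MCM7 peaks. TOP2A was at -1.96 in OAA and -1.88 in CON. The MCM7 5′UTR peak shared with AP4M1 was at -2.61 in OAA and -1.88 in CON, and the MCM7 start codon peak at -1.83 and -1.83. By the mean of the replicate ratios a coding peak of PLK1 was also low, at -1.91 in CON. AURKB peak 1 and FOXM1 peak 2 had too few reads for the ratio tests within a treatment and entered only the test of change.

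Whether OAA changed the ratio was tested with the interaction of library type and treatment. No member gene passed, and none of 9097 genes did (0%); 0 members had an unadjusted p under 0.05, against 3.73% of all genes (edgeR). The smallest p among members was that of BUB1B, a kinase-like checkpoint protein, with ratios of -1.77, -1.88 and -1.45 in OAA and -1.11, -1.58 and -1.34 in CON and a change of -0.35 ± 0.25 (SE, 95% interval -0.86 to 0.16, edgeR adjusted p = 1). CCNE2 followed, with -1.40, -1.86 and -1.94 in OAA and -1.28, -1.61 and -1.58 in CON and a change of -0.27 ± 0.20, and MCM2, with -1.38, -2.04 and -1.77 in OAA and -2.33, -2.13 and -1.44 in CON and a change of 0.23 ± 0.20. In all 3 the treatments overlapped. With a replicate left out the change was -0.49 to -0.23 for BUB1B, -0.42 to -0.16 for CCNE2 and 0.03 to 0.52 for MCM2, with MCM2 lowest without OAA replicate 1 and highest without CON replicate 3. The median change was -0.0012 over members and -0.0049 over all genes, and the median 95% interval of a member was ± 0.42.

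Per peak, 0 of 83 member peaks and 0 of 24145 peaks passed (0%; with the replicate block 1 peak, of no member, passed), and 1 member peak had an unadjusted p under 0.05, against 4.46% of all peaks (edgeR). It was peak 2 of CDT1 (chromosome 6, 897414 to 897588), in coding sequence, which held 34, 44 and 27 reads in OAA labelled input, 35, 23 and 26 in CON labelled input, 5, 2 and 2 in OAA labelled IP and 5, 7 and 12 in CON labelled IP. The change was 1.86 ± 0.81 (SE, edgeR adjusted p = 0.999) and rests on few labelled-IP reads. TPX2 peak 1, in the 5′UTR, had ratios of 0.37, 1.31 and 1.11 in OAA and 0.36, 0.16 and -0.16 in CON, with a change of 0.81 ± 0.40. MKI67 peak 5 had -1.37, -0.64 and -1.67 in OAA and -1.25, -0.49 and -0.44 in CON, with a change of -0.46 ± 0.25. The treatments overlapped at MKI67 peak 5 and barely missed doing so at TPX2 peak 1. The authors' deposited table gave no adjusted p below 0.9998 for any member peak.

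A wider list of replication, cyclin and mitosis genes outside the 37 was read the same way. In labelled input 96 were tested between OAA and CON and 0 passed. The smallest p-values were those of DNMT1, the maintenance DNA methyltransferase (-2.16 ± 0.74, edgeR adjusted p = 0.929), and INCENP, of the chromosomal passenger complex (0.25 ± 0.09, edgeR adjusted p = 0.929). On FPKM 0 of 128 passed, with BUB3, a checkpoint protein, at 0.12 ± 0.05 and DTYMK, thymidylate kinase, at -0.27 ± 0.13. The ratio was called lower in 52 and higher in 17 of 95 in OAA, against 38.1% and 38% of all genes. In CON it was called lower in 55 and higher in 18 of 95, against 38.7% and 39.3%. The list's median ratio was -0.62 in OAA and -0.66 in CON. MYBL2, a transcription factor of the mitotic programme, was at -1.64 ± 0.08 in OAA and -1.67 ± 0.05 in CON, and TACC3, a spindle protein, at 1.51 ± 0.08 and 1.54 ± 0.05. The change of the ratio passed in 0 of 95, with HMMR at 2.07 ± 0.73 and RFC5, a clamp loader subunit, at -0.81 ± 0.32.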

How the data were processed

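Counts of reads per merged peak, a log2 ratio per treatment and a p-value with its adjusted form were deposited by the authors, per the file headers, and so were FPKM per gene. Bowtie2 and HISAT2 were used, per the submitters' processing notes; their versions and roles, the build, the annotation and the peak caller were not given in the sources used here. Peaks recur once for each gene they touch: 29011 entries hold 25055 peaks. The FPKM columns match libraries labelled IP by code.

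Each peak entered once, and a gene's count is the sum over peaks that touch no other gene. In R 4.3.3, edgeR 4.0.16 tested counts by quasi-likelihood after TMM and its default low-count filter. limma 3.58.1 with a trend tested log2(FPKM + 1) where 3 or more libraries reached 1 FPKM, with Benjamini-Hochberg adjustment over all features and a threshold of 0.05. On that scale differences of low genes are understated. TMM makes ratios relative to the typical gene or peak. Library depth sets the precision, as the labelled-IP libraries held fewer reads in peaks, and errors cover the spread between libraries. Members, lists and tests were chosen with earlier results of these data known. Named in full are the 3 members with the smallest p in each gene comparison, the 3 highest and lowest ratios in CON, the 3 highest FPKM and, for peaks, the 3 smallest p in the change of ratio and the 3 highest and lowest ratios in CON; of the wider list, the 2 smallest p. Genes shown for the third OAA library and within-gene contrasts were chosen after their values were seen. MKI67, RRM2, AURKA and PCNA are named by the deposited symbol alone.

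Replicate numbers shared across groups were checked by correlating deviations from group means. Same-numbered libraries correlated at -0.07 to -0.03 between OAA and CON labelled input, -0.25 to -0.04 between OAA and CON FPKM, 0.01 to 0.10 between labelled input and IP in OAA and -0.01 to 0.03 in CON. Each RNA was divided into both parts, per the labels' protocols, so the number pairs labelled input with labelled IP; between OAA and CON it is only a shared number. The main fits have no block, and a blocked call of a member gene is given where it differs. With the block 14 member peaks were higher and 50 lower in OAA, against 11 and 49 without it. In CON they were 15 and 50, against 16 and 50. Alternatives were DESeq2 1.42.0, library size scaling, no low-value filter, peaks under several genes, a smaller pseudocount, all libraries in 1 fit, the replicate block and each replicate left out. The scripts were tested on simulated data. For the change of ratio a first run on features down to a mean of 20 counts missed the pass mark for single peaks, and the mark was then set on features with a mean of at least 200 counts, which met it; the test of change is therefore less sensitive at low counts.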

Additional observations from a re-analysis of the deposited data

How the results depend on the processing

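Counts of member calls kept their size within 1.5 times under most alternatives, and none of the alternatives called a member between OAA and CON or for the change of the ratio. Over all genes, OAA against CON in labelled input had 1 call with DESeq2 and 0 to 1 with a replicate left out, and FPKM had 1 call with no FPKM filter. The change of the ratio had 0 to 1 calls over genes and 0 to 1 over peaks with a replicate left out, and 1 over peaks with DESeq2. With peaks under several genes included, FOXM1 reversed to 0.13 in OAA and to 0.25 in CON, where it was the 1 member called higher. Scaling by library size left 5 member peaks higher in OAA and 5 in CON, against 11 and 16, and leaving out a replicate gave 6 to 14 in OAA, the lowest without OAA replicate 2. AURKA, close to 0, changed sign: in OAA to 0.020 with DESeq2 and 0.035 with peaks under several genes, and -0.056 to 0.047 with a replicate left out; in CON to 0.010, 0.026 and -0.032 to 0.029. The call on MKI67 was lost in both treatments with DESeq2 and with peaks under several genes, in OAA without OAA replicate 1 (-0.13) or 2 (-0.15), and in CON without CON replicate 2 (-0.09) or 3 (-0.09). FOXM1 lost its call in OAA without OAA replicate 2 (-0.26), and in CON without CON replicate 1 (-0.30), 2 (-0.35) or 3 (-0.33). RRM1 lost it in OAA without OAA replicate 1 (-0.85) and in CON without CON replicate 2 (-0.98), CDK2 in CON without CON replicate 2 (-0.87) or 3 (-0.92), and MCM3 in CON without CON replicate 1 (-0.18). In OAA, CENPF was called without OAA replicate 1 (-0.30) or 3 (-0.20), and CDK2 without OAA replicate 3 (-1.08). The cause of these changes was not tested.

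Replicate numbers pair the labelled-input and labelled-IP libraries of one treatment, while OAA and CON share only the numbers. With the replicate block the change of the ratio had 1 call over peaks, against 0 without it, and CENPF was called lower, at -0.25 in OAA and -0.18 in CON (edgeR adjusted p = 8.84e-05 and 0.00131); it changed no other call of a member gene and moved no other count by over 1.5 times. Labelled-IP depth limits peaks with few reads, such as AURKB peak 1.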
